A study of Mus musculus with 6 samples.

Results

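Protein phosphatase 1 (PP1) acts on glycogen through glycogen-targeting subunits (G subunits), and the 10 genes described here are the 7 targeting subunits Ppp1r3a to Ppp1r3g and the 3 catalytic subunits Ppp1ca, Ppp1cb and Ppp1cc. They were chosen by name, and all 10 are among the 34714 gene symbols counted. RNA came from the gastrocnemius (Gas) muscles of 8-week-old, untreated mice, 3 WT and 3 M92KO, where M92KO mice carry a global deletion of miR-92b in every tissue (miR-92b-/-, strain C57BL/6JGpt-Mir-92bem22Cd549/Gpt) and the WT libraries are labelled C57. Both groups were kept on a standard diet with free access to food. The study's supplementary methods describe an overnight fast of all mice before muscle was collected, without naming the RNA samples separately. The paper describes the knockout mice as male and the WT controls as age-matched C57BL/6 mice. The labels number the replicates without naming animals, so p-values measure the spread between these samples, which may in part be technical, and whether the WT mice were littermates is not given in the sources used here. Mir92b itself was not analysed here, so the genotype labels were not checked against the deleted gene.

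A targeting subunit binds glycogen and a catalytic subunit at once, and in this way brings the phosphatase to glycogen synthase, glycogen phosphorylase and phosphorylase kinase. Dephosphorylation switches glycogen synthase on and glycogen breakdown off, so the complexes favour glycogen storage. Ppp1r3a encodes GM (also RGL), the large targeting subunit of striated muscle. Ppp1r3b encodes GL, known best from liver, and Ppp1r3c encodes PTG (protein targeting to glycogen), which is found in many tissues.

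The library counts were between 38246649 and 48209846 in WT and between 33160508 and 37019640 in M92KO mice. The summed level of 10 muscle fibre markers was between 118486 and 129588 CPM (counts per 1000000 of the TMM-normalised library size) in WT and between 121152 and 126581 CPM in M92KO libraries, so the labelled tissue was seen in all 6. Of the 15788 genes tested with edgeR's quasi-likelihood test, 0 (0.0%) had an adjusted p-value under 0.05 and 1955 (12.4%) had an unadjusted p-value under 0.05, 5.47% higher and 6.92% lower in M92KO mice. DESeq2 gave 312 genes at an adjusted p-value under 0.05. The first M92KO library stood apart from the other 5 on the second principal component, which held 25.8% of the variance, and calls that it changed are given with and without it.

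The sequences below are shown because the deleted miRNA pairs with mRNAs through bases 2 to 8 of its mature strands, the seed, here in capitals. Both strands were read from RefSeq's table for GRCm38.p6, and both lie on the minus strand of chromosome 3, at chr3:89227126-89227147 and chr3:89227165-89227188.
mmu-miR-92b-3p: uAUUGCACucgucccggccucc
mmu-miR-92b-5p: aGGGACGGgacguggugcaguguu
The seed of miR-92b-3p is shared by 6 mature mouse miRNAs of that table, the others being miR-25-3p, miR-32-5p, miR-92a-3p, miR-363-3p and miR-367-3p, while the seed of miR-92b-5p belongs to that miRNA alone.

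Among the 10 genes, a 7mer match to miR-92b was found in the 3′-UTRs of Ppp1r3a and Ppp1r3b, 1 in each, and the one in Ppp1r3b pairs with the whole seed. The one in Ppp1r3a pairs with 6 bases of the seed and has an A opposite base 1. The letters searched on the mRNA strand were GTGCAAT or TGCAATA for miR-92b-3p and CCGTCCC or CGTCCCA for miR-92b-5p, and a match of both forms together is an 8mer. The site in Ppp1r3a lies on the minus strand of GRCm38 at chr6:14717091-14717097, the site in Ppp1r3b on the plus strand at chr8:35386001-35386007, and the matching bases are in capitals within 30 bases of 3′-UTR.
Ppp1r3a: agaaaatacccatgtacttTGCAATAtgaa
Ppp1r3b: ttttcttaaccatattggaGTGCAATgcgc
The Ppp1r3a match begins at base 547 of a 3′-UTR of 3667 bases, and the Ppp1r3b match at base 1138 of one of 3266 bases. The 6mer TGCAAT occurred once more in Ppp1r3a, at chr6:14717318-14717323, and once in Ppp1r3c, at chr19:36733366-36733371. The 6mer CGTCCC of miR-92b-5p occurred once in Ppp1r3e, at chr14:54876021-54876026. No 8mer was found in any of the 10 genes, and Ppp1r3d, Ppp1r3f, Ppp1r3g and the 3 catalytic subunits held none of these letters in their annotated 3′-UTRs. Of the 13678 genes tested that have a 3′-UTR in GENCODE M21, 15.7% held a 7mer or 8mer for miR-92b-3p and 7.04% one for miR-92b-5p. A match is a description of the letters and not evidence of binding.

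In the muscle of untreated mice the targeting subunits formed an abundant pair and a scarce group. Ppp1r3a and Ppp1r3c together made up 98.7% ± 0.25 (SD, n = 3) of the summed targeting subunits in WT and 98.7% ± 0.143 (SD, n = 3) in M92KO muscle, as CPM per kilobase of the longest annotated transcript. The other 4 that were detected, Ppp1r3b, Ppp1r3d, Ppp1r3e and Ppp1r3f, each stood below 1 CPM per kilobase in all 6 libraries, and Ppp1r3g had no counts. The lowest value of the pair, 87.3 CPM per kilobase, was 88.5 times the highest value of the scarce group, 0.986 CPM per kilobase. Each gene's level before division by length is shown in the plot of levels by library.

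**Figure D1:**
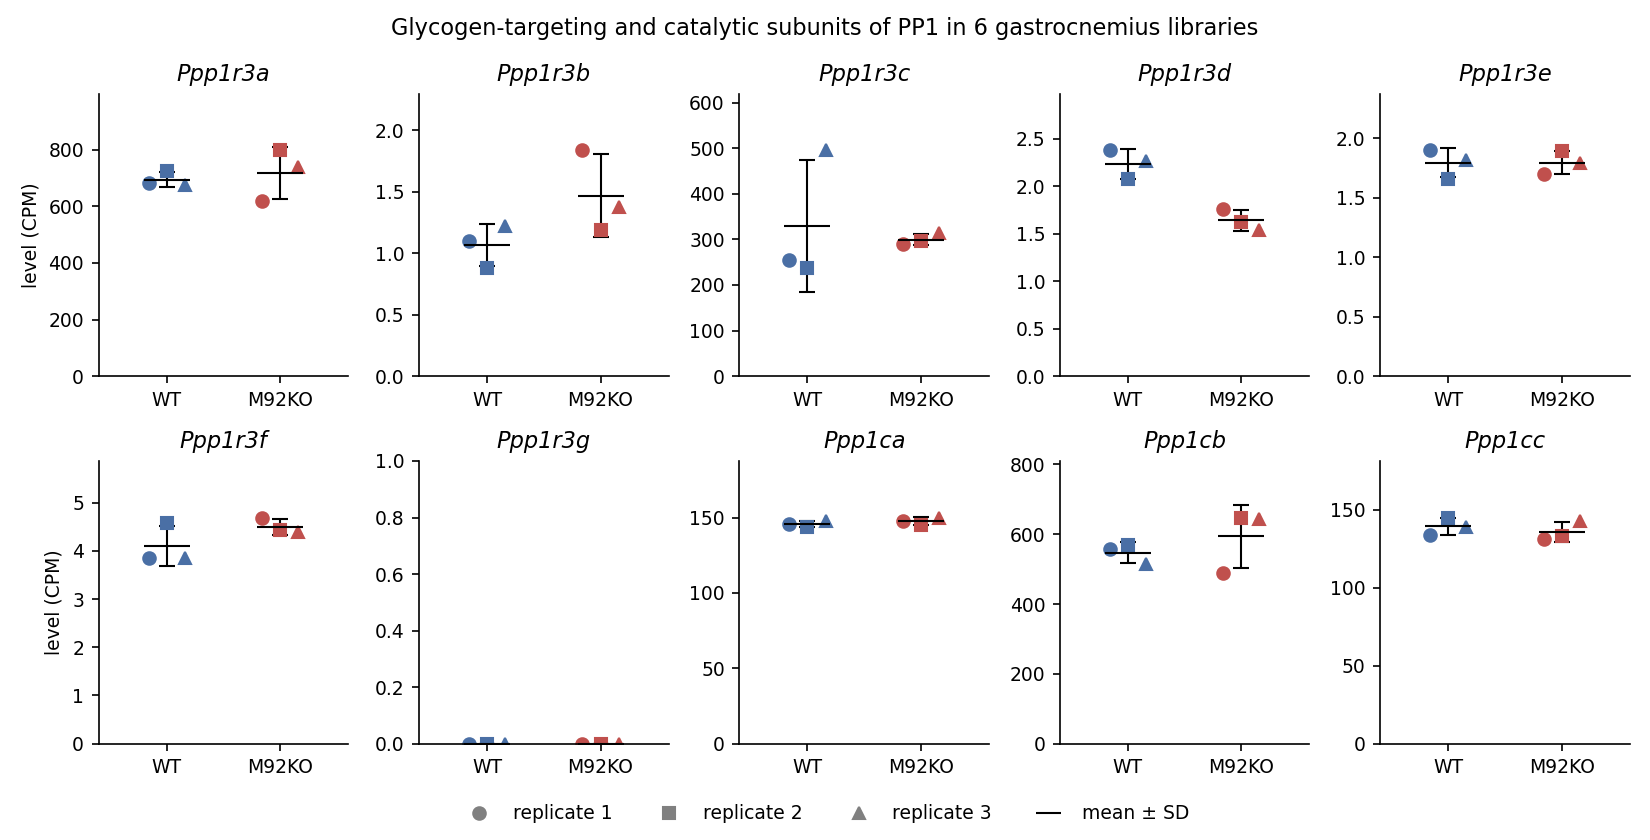
Level (CPM, linear axis from 0, a separate scale for each gene) of the 10 subunits in the 3 WT (blue) and 3 M92KO (red) libraries, with the mean and SD of each group; marker shapes give the replicate number. The 3 Ppp1r3d values of M92KO mice, 1.54 to 1.76 CPM, lie below the 3 of WT mice, 2.07 to 2.38 CPM, and 1 WT value of Ppp1r3c, 496 CPM, lies far above the other 5.

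Per kilobase of longest transcript, the order in WT muscle was Ppp1r3c at 121 ± 53.0, Ppp1r3a at 99.6 ± 3.84, Ppp1ca at 99.3 ± 1.25, Ppp1cb at 91.8 ± 4.94 and Ppp1cc at 55.9 ± 2.39 CPM per kilobase (SD, n = 3). The ranges of the first 3 overlapped. Ppp1cb, with a highest WT value of 95.5, lay below the lowest of Ppp1ca, 98.1, and Ppp1cc lay below all of these. Of the scarce subunits, Ppp1r3e stood at 0.917 ± 0.0645 and Ppp1r3f at 0.861 ± 0.0883 CPM per kilobase (SD, n = 3), with ranges that overlapped. They were followed by Ppp1r3d at 0.685 ± 0.0479 and Ppp1r3b at 0.243 ± 0.0389 CPM per kilobase (SD, n = 3), each below every WT value of the gene before it.

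Among 14770 genes tested that have an annotated length, Ppp1r3c ranked 388 from the top by WT level per kilobase, Ppp1r3a 465, Ppp1ca 467, Ppp1cb 518 and Ppp1cc 869. The median of those genes was 4.71 CPM per kilobase. All 4 scarce subunits lay below it, with Ppp1r3e at rank 11459 and Ppp1r3b at rank 13524.

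The order within the abundant group depended on which length was used, since the genes differ in how much of the transcript is coding. The longest transcript of Ppp1cb has 5962 bases and a coding sequence of 981, whereas Ppp1ca has 1473 and 990 bases. Per kilobase of coding sequence, Ppp1cb came first in WT muscle at 558 ± 30 CPM per kilobase (SD, n = 3), followed by Ppp1r3c at 346 ± 152, Ppp1r3a at 212 ± 8.18, Ppp1ca at 148 ± 1.85 and Ppp1cc at 138 ± 5.90 (SD, n = 3). The ratio of Ppp1cb to Ppp1ca was 0.925 with the longest transcripts, 0.865 with the union of exons and 3.78 with coding length. The gap from the lowest value of these 5 genes to the highest of the scarce subunits was there with all 3 lengths, at 53.1 times with the longest transcript, 41.9 times with the union of exons and 45.4 times with coding length. Within the scarce group Ppp1r3d moved from the third place to the first with coding length, at 2.67 ± 0.187 CPM per kilobase (SD, n = 3).

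**Figure D2:**
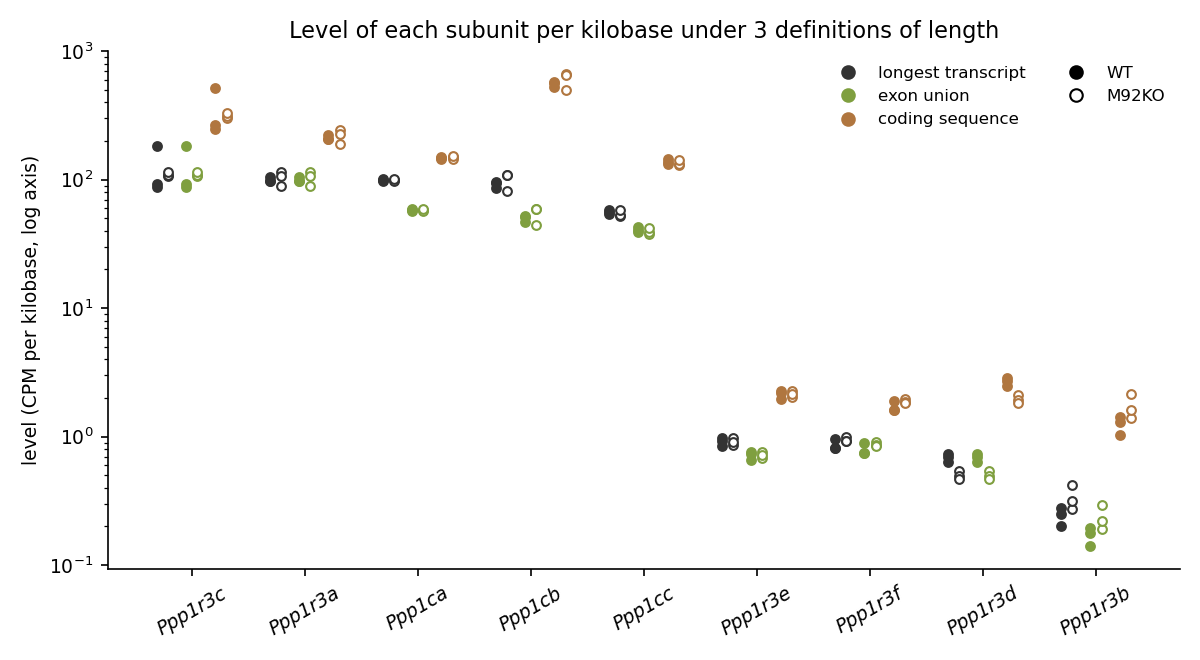
Level of 9 subunits in CPM per kilobase on a log axis, with length taken as the longest transcript (black), the union of exons (green) or the coding sequence (brown); each point is a library, filled for WT and open for M92KO. Ppp1r3g, with 0 counts, cannot be drawn on a log axis, and the 5 subunits on the left lie at least 41.9 times above the 4 on the right under each length.

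The comparison of M92KO with WT muscle asks whether the loss of miR-92b went along with other levels of these subunits. Of the 10 genes, 9 passed the filter on low counts and were tested. None had an adjusted p-value under 0.05 with edgeR, against 0.0% of all genes tested, and 1 of 9, Ppp1r3d, had an unadjusted p-value under 0.05, against 12.4% of all genes. DESeq2 gave 0 of the 9 at an adjusted and 0 at an unadjusted p-value under 0.05, and the steps of the study's supplementary methods (quantile normalisation, log2 and limma) gave 0 and 1. The groups did not overlap for the same gene alone, against 18.4% of all genes tested. The median log2 fold change of the 9 genes was 0.01, that of all genes tested -0.00.

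Ppp1r3a (ENSMUSG00000042717, GRCm38 chr6:14713977-14755274, minus strand), the muscle targeting subunit, was counted 31557, 27969 and 32161 times in WT libraries and 21488, 26177 and 26861 times in those of M92KO mice. These were 683, 724 and 674 CPM in WT and 619, 799 and 740 CPM in M92KO mice. The first M92KO library was the lowest of all 6 and the other 2 the highest, so the M92KO values lay on both sides of the WT values. Its log2 fold change was 0.05 (standard error 0.10, 95% interval -0.18 to 0.28), with an adjusted p-value of 0.878 from edgeR and p = 0.7 from a two-sided exact permutation test, for which 0.1 is the smallest p that 3 libraries against 3 allow. Without the first M92KO library it was 0.15, with an unadjusted p-value under 0.05 and an adjusted p-value of 0.237 from edgeR. Without the second it was -0.03, and with the supplementary methods' steps -0.02. In the interval given by the 6 libraries, a level in M92KO muscle between 0.885 and 1.22 times that of WT was possible.

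Ppp1r3c (ENSMUSG00000067279, chr19:36731731-36736653, minus strand), which encodes PTG, stood at 254, 238 and 496 CPM in WT and at 289, 296 and 313 CPM in M92KO libraries. The third WT library was 1.95 times the next WT library, and the M92KO values, with a coefficient of variation of 4.10%, all lay between the third and the other 2 WT libraries. The log2 fold change was -0.14 (standard error 0.247, 95% interval -0.70 to 0.43, adjusted p = 0.869 from edgeR, exact permutation p = 1.0). The third WT library alone decided its sign. Without it the log2 fold change was 0.28, with an unadjusted p-value under 0.05 and an adjusted p-value of 0.533 from edgeR. It also set the place of Ppp1r3c in the order of levels, where its ratio to Ppp1r3a per kilobase of longest transcript in WT muscle was 1.22 with that library and 0.895 without it.

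A level in the third WT library at least as far above both others was found in 73 of the 15788 genes tested (0.462%), Ppp1r3c included. Among the most abundant of them, named after their values were seen, were the early response genes Fos and Junb and the heat shock gene Hspa1b. Fos stood at 10.3, 33.1 and 137 CPM in WT and at 13.0, 34.4 and 13.7 CPM in M92KO libraries. Junb stood at 13.1, 33.5 and 118 CPM in WT and between 12.4 and 20 CPM in M92KO libraries, and Hspa1b at 11, 11.2 and 91.5 CPM in WT and between 3.31 and 9.69 CPM in M92KO libraries. The same library had the lowest WT sums of 6 slow fibre markers, 108 CPM against 183 and 201, and of 5 red cell markers, 74.0 CPM against 214 and 223. In M92KO libraries the slow fibre sums were 80.4, 89.1 and 166 CPM and the red cell sums 330, 143 and 336 CPM. A low slow fibre sum was therefore not particular to the third WT library. The part of these genes and markers in the Ppp1r3c value was not tested.

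Ppp1r3d (ENSMUSG00000049999, chr2:178411206-178414472, minus strand), a targeting subunit also called R6, was the one member whose groups did not overlap. It was counted 110, 80 and 108 times in WT libraries and 61, 53 and 56 times in those of M92KO mice, or 2.38, 2.07 and 2.26 CPM against 1.76, 1.62 and 1.54 CPM. All 3 M92KO values lay below all 3 WT values, but the counts were small, and the exact Poisson 95% interval of the lowest WT library, 1.64 to 2.58 CPM, overlapped that of the highest M92KO library, 1.34 to 2.26 CPM (counting error only). Summed over the 3 libraries of a group, the level was 2.25 CPM (2.0 to 2.52) in WT and 1.64 CPM (1.40 to 1.90) in M92KO mice. In the fit the log2 fold change was -0.45 (standard error 0.175, 95% interval -0.85 to -0.05), with an unadjusted p-value under 0.05, an adjusted p-value of 0.361 from edgeR and an exact permutation p of 0.1, the smallest possible. Fits that left out a library gave -0.50 to -0.40, and the unadjusted p-value was under 0.05 in 2 of those 6 fits. It was not without the first WT library, the third WT library, the second M92KO library or the third M92KO library, where adjusted p-values from edgeR were 0.591, 0.644, 0.49 and 0.516.

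Ppp1r3b (ENSMUSG00000046794, chr8:35375739-35388139, plus strand), the liver-type subunit whose 3′-UTR matches the whole miR-92b-3p seed, was counted 51, 34 and 58 times in WT libraries and 64, 39 and 50 times in those of M92KO mice. These corresponded to 1.10, 0.88 and 1.22 CPM in WT and 1.84, 1.19 and 1.38 CPM in M92KO libraries. The second M92KO value lay inside the WT range and the other 2 above it. The log2 fold change of 0.46 was the largest positive one of the 9 genes, but its standard error was 0.249 and its 95% interval ran from -0.11 to 1.03 (adjusted p = 0.513 from edgeR, exact permutation p = 0.2). A level in M92KO mice between 0.927 and 2.04 times that of WT was therefore possible at this depth. Leaving out the first M92KO library moved the log2 fold change most, to 0.26.

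Ppp1r3e (ENSMUSG00000072494, chr14:54872669-54877550, minus strand) stood at 1.90, 1.66 and 1.82 CPM in WT and at 1.70, 1.89 and 1.79 CPM in M92KO libraries, from 59 to 88 counts. The ranges were nearly the same and both means were 1.79 CPM. The 95% interval of its log2 fold change, -0.41 to 0.40, still allowed a level between 0.754 and 1.32 times that of WT (adjusted p = 0.996 from edgeR).

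Ppp1r3f (ENSMUSG00000039556, chrX:7557296-7574283, minus strand), a membrane-bound targeting subunit, stood at 3.85, 4.58 and 3.86 CPM in WT and at 4.69, 4.43 and 4.38 CPM in M92KO libraries. The first M92KO value was the highest of the 6, and the other 2 lay below the highest WT value. The log2 fold change was 0.14 (standard error 0.135, 95% interval -0.17 to 0.45, adjusted p = 0.736 from edgeR). Of its exon bases, 46.9% are shared with Gm36995 on the same strand, which was not analysed here, and 5.16% with Foxp3 on the opposite strand. Flicr, a long non-coding RNA, shares 6.02% from the opposite strand. Foxp3 had 6 to 12 counts and Flicr 5 to 15 counts a library, against 145 to 184 counts of Ppp1r3f.

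Ppp1r3g (ENSMUSG00000050423, chr13:35958839-35970388, plus strand), a targeting subunit described in liver, had 0 counts in all 6 libraries and was not tested. A count of 0 allows up to 3 counts, which came to between 0.0629 and 0.0916 CPM a library.

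Ppp1ca (ENSMUSG00000040385, chr19:4192065-4195420, plus strand), the alpha isoform of the catalytic subunit, stood at 146, 144 and 148 CPM in WT and at 148, 145 and 150 CPM in M92KO libraries, coefficients of variation of 1.25% and 1.77%. The groups overlapped almost fully. Its log2 fold change of 0.01 (standard error 0.0592) had the narrowest interval of the 9 genes, -0.12 to 0.15, or 0.919 to 1.11 times the WT level (adjusted p = 0.956 from edgeR). Its sign was not stable, at -0.02 with the supplementary methods' steps and -0.03 with offsets for GC content and length. Of its exon bases, 8.93% lie opposite Rad9a, which had between 170 and 297 counts a library against 4742 to 7068 of Ppp1ca.

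Ppp1cb (ENSMUSG00000014956, chr5:32458843-32517433, plus strand), the beta (also delta) isoform of the catalytic subunit, stood at 559, 569 and 514 CPM in WT and at 488, 648 and 645 CPM in M92KO libraries. As for Ppp1r3a, the first M92KO library was the lowest of all 6 and the other 2 were the highest. Its log2 fold change was 0.12 (standard error 0.115, 95% interval -0.14 to 0.38, adjusted p = 0.733 from edgeR, exact permutation p = 0.6). Without the first M92KO library it was 0.24, with an unadjusted p-value under 0.05 and an adjusted p-value of 0.0808 from edgeR. In that fit the adjusted p-value was under 0.05 for 401 of 16058 genes, and none of the 10 subunits was among them.

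Ppp1r3a and Ppp1cb had the same order of libraries, from the lowest in the first M92KO library to the highest in the second M92KO library. The ratio of their counts was between 1.15 and 1.31 in all 6 libraries, at 1.27 ± 0.0444 in WT and 1.22 ± 0.0621 (SD, n = 3) in M92KO mice. By contrast the ratio of Ppp1r3a to Ppp1r3c counts ranged from 1.36 in the third WT library to 3.05 in the second. The summed level of 8 fibroblast markers was 2337, 1773 and 1808 CPM in WT and 1207, 1655 and 1594 CPM in M92KO libraries, so it was lower in all 3 M92KO libraries and lowest in the first. Of these markers, 3 of 8 (Col1a1, Col1a2 and Dcn) were lower at an unadjusted p-value under 0.05, against 6.92% of all genes tested. With edgeR, 0 passed the adjustment. The other markers, Col3a1, Lum, Dpt, Pdgfra and Pi16, had log2 fold changes of -0.38, -0.38, -0.19, -0.10 and 0.12. The first M92KO library also had the lowest sum of 5 macrophage markers, 33.5 CPM against 46.4 to 51.2. In whole muscle, fewer cells of a type and less RNA per cell cannot be told apart, and the part of these cells in the Ppp1r3a and Ppp1cb values was not tested.

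Ppp1cc (ENSMUSG00000004455, chr5:122158278-122175273, plus strand), the gamma isoform, stood at 134, 145 and 139 CPM in WT and at 131, 133 and 143 CPM in M92KO libraries. The ranges overlapped, and the log2 fold change was -0.04 (standard error 0.0689, 95% interval -0.20 to 0.12, adjusted p = 0.87 from edgeR). Its values are uncertain because 54.4% of the 50-base windows of its longest transcript also occur in other genes, most of them in Ppp1ccb, a close copy on chromosome 7. In turn 97.6% of the windows of Ppp1ccb occur in Ppp1cc. Ppp1ccb stood at 23.5, 23.3 and 22.5 CPM in WT and at 22.5, 22.2 and 21.6 CPM in M92KO libraries. Its log2 fold change was -0.07 (adjusted p = 0.759 from edgeR). Before rounding, all 3 M92KO values lay below all 3 WT values (exact permutation p = 0.1, the smallest possible). Of all genes tested, 18.4% had groups apart in either direction. How reads were split between the copies is not given in the sources used here. No such window was shared for Ppp1r3a, Ppp1r3c, Ppp1r3d, Ppp1r3e, Ppp1r3g or Ppp1cb.

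**Figure D3:**
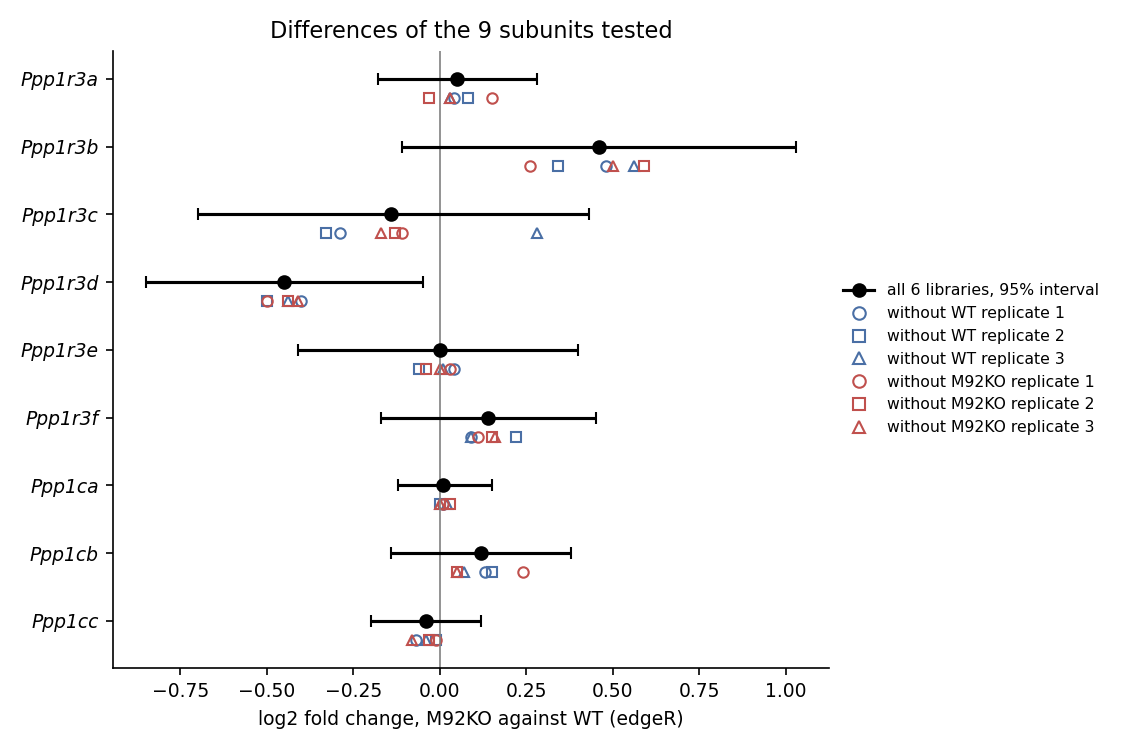
Log2 fold change of M92KO against WT mice from edgeR for the 9 subunits tested, with 95% intervals from all 6 libraries (black) and the values with each library left out (open symbols, blue for a WT and red for an M92KO library). The interval of Ppp1r3d alone, -0.85 to -0.05, leaves out 0, and the value of Ppp1r3c moves from -0.14 to 0.28 without the third WT library.

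Among the catalytic subunits the share of each overlapped between the groups. Per kilobase of longest transcript, Ppp1ca made up 40.2% ± 1.27, Ppp1cb 37.1% ± 1.40 and Ppp1cc 22.6% ± 0.785 of the summed level in WT mice (SD, n = 3). In M92KO mice the shares were 39.5% ± 2.80, 39.0% ± 3.63 and 21.5% ± 0.917 (SD, n = 3). The summed targeting subunits stood at 0.906 ± 0.221 times the summed catalytic subunits in WT and at 0.849 ± 0.0168 times in M92KO mice (SD, n = 3), and the WT spread came from the third library, at 1.16 against 0.787 and 0.77.

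The substrates and partners of these complexes were described with a list of 22 genes of glycogen synthesis, breakdown and binding, of which 21 were tested. At an unadjusted p-value under 0.05, 4 were higher and 0 lower in M92KO mice, against 5.47% and 6.92% of all genes tested. With edgeR, 0 passed the adjustment, whereas DESeq2 passed 2, Ugp2 (adjusted p = 0.00103) and Stbd1 (adjusted p = 0.002). The list's median log2 fold change was 0.03, against -0.00 for all genes tested. The 4 genes were Ugp2, Stbd1, Gys1 and Gyg, of which 3 act in synthesis. Among the 8 synthesis genes tested the median was 0.20, and among the 10 breakdown genes it was 0.00, with none at an unadjusted p-value under 0.05. The number of genes rested on single libraries, at 8 without the first M92KO library and at 2 without the second M92KO or the second WT library. The number among all genes tested moved in the same direction. It was 2984 of 16058, 1691 of 16067 and 1222 of 15970 in these 3 fits, against 1955 of 15788 in the fit reported.

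Gys1, muscle glycogen synthase and the substrate that the complexes switch on, stood at 727, 693 and 688 CPM in WT and at 720, 982 and 984 CPM in M92KO libraries. The first M92KO value lay in the WT range and the other 2 far above it (log2 fold change 0.35, standard error 0.121, adjusted p = 0.314 from edgeR). Pygm, muscle glycogen phosphorylase, stood between 6684 and 7966 CPM in WT and between 6563 and 7330 CPM in M92KO libraries, with a log2 fold change of -0.08 (95% interval -0.31 to 0.16, adjusted p = 0.815 from edgeR). Phka1, the muscle alpha subunit of phosphorylase kinase, had a log2 fold change of 0.13 (95% interval -0.07 to 0.34, adjusted p = 0.61 from edgeR). Of the other synthesis genes, Ugp2, which makes UDP-glucose, had a log2 fold change of 0.70, the glycogen primer Gyg one of 0.20 and the branching enzyme Gbe1 one of 0.50, the last with an interval from -0.07 to 1.06. Stbd1, a glycogen-binding protein, had a log2 fold change of 0.56. After adjustment, edgeR gave these 4 genes p-values between 0.179 and 0.472. Without the first M92KO library, edgeR's adjusted p-value was under 0.05 for 5 of the 21 glycogen genes, against 401 of all 16058 genes tested. All 5 were higher in M92KO mice. These were Gys1 (0.0063), Ugp2 (0.0067), Gbe1 (0.0104), Stbd1 (0.0444) and Gyg (0.0489), with log2 fold changes of 0.48, 0.86, 0.77, 0.61 and 0.24. Epm2a (laforin) and Nhlrc1 (malin), which act on glycogen quality and on PTG, had log2 fold changes of -0.02 and -0.03.

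Other proteins that bind the catalytic subunits were described with a list of 33 other PP1 inhibitors and subunits, of which 29 were tested. At an unadjusted p-value under 0.05, 2 were higher and 8 lower in M92KO mice, that is 10 of 29 against 12.4% of all genes tested. With edgeR, 0 passed the adjustment. Without the first M92KO library 1 of 29 did, against 401 of all 16058 genes tested. It was Ppp1r12b, a myosin phosphatase subunit that was higher in M92KO mice. In each other fit that left out a library, 0 of the 29 passed. DESeq2 passed 3, Ppp1r13l (adjusted p = 0.00103), Ppp1r10 (0.00332) and Ppp1r27 (0.0319). The list's median log2 fold change was -0.04. The number was between 5 and 6 when any one of the 3 WT libraries was left out, and 5 without the second M92KO library. Among all genes tested it was between 1222 and 1600 without a WT library and 1691 without the second M92KO library, against 1955 in the fit reported.

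The 5 genes of that list with the smallest p-values were Ppp1r13l, Ppp1r10, Ppp1r27, Ppp1r11 and Ppp1r15b, with adjusted p-values from edgeR between 0.173 and 0.336. Ppp1r10 (PNUTS), which holds the phosphatase in the nucleus, stood at 51.7, 49.8 and 46.9 CPM in WT and at 22, 26.6 and 39.1 CPM in M92KO libraries, a log2 fold change of -0.76 (standard error 0.181). Ppp1r13l (iASPP), an inhibitor of p53, stood at 8.03, 8.28 and 8.76 CPM in WT and at 4.75, 3.85 and 5.70 CPM in M92KO libraries, a log2 fold change of -0.81 (standard error 0.151). In both genes all 3 M92KO values lay below all WT values, and the unadjusted p-value was under 0.05 in 6 of 6 fits that left out a library. Both genes were picked by p-value from these same libraries, so that count is not independent support. Ppp1r15b (CReP), which directs the phosphatase to the translation factor eIF2alpha, had a log2 fold change of -0.23. Higher in M92KO libraries were Ppp1r27, at 100, 108 and 90.3 CPM in WT and 124, 120 and 134 CPM in M92KO libraries, with a log2 fold change of 0.34, and the inhibitor Ppp1r11 with one of 0.25.

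**Figure D4:**
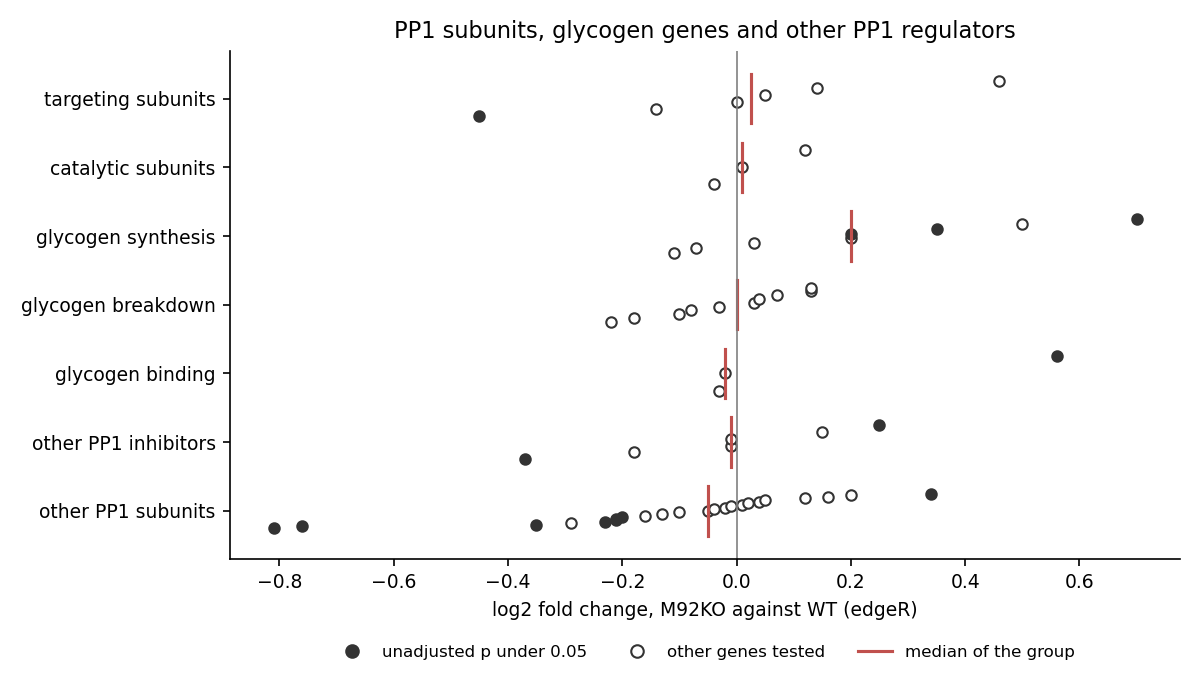
Log2 fold change of M92KO against WT mice (edgeR) for each gene tested among the targeting and catalytic subunits, the glycogen genes and the other PP1 regulators; filled points have an unadjusted p-value under 0.05 and red lines are medians. Filled points lie to the right in the synthesis group, 3 of 8 genes, and mostly to the left among the other PP1 subunits, 7 of 23 lower and 1 higher. Of all genes tested, 5.47% were higher and 6.92% lower at that threshold.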

How the data were processed

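Gas muscle RNA of 3 WT and 3 M92KO mice was sequenced. The authors deposited raw counts per gene symbol. The labels name a SMARTer kit, and the submitters' processing notes name the builds GRCm38 and mm10. Aligner, counting program and strandedness are not given in the sources used here. Positions, lengths and 3′-UTRs came from GENCODE M21 (25686 of 34714 symbols matched by symbol, 556 by RefSeq accession).

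Counts were tested with edgeR 4.0.16 in R 4.3.3 (filterByExpr, minimum count 10, minimum total 15, TMM, quasi-likelihood test, Benjamini-Hochberg adjustment over 15788 genes, no covariate). A trial of the fit on simulated counts used changes larger than those of the subunits. It does not show how small a change could be found. Exact permutation tests used log2(CPM + 0.5). Alternatives used DESeq2 1.42.0, limma 3.58.1, other filters, offsets and left-out libraries. Floors (3 counts) and Poisson intervals cover counting error only. The genes and lists were chosen with earlier results of these data known. Named genes were the 10 subunits, Gys1, Pygm, Phka1, 5 genes from each of 2 lists (smallest p-values), and genes whose exons overlap a subunit. Others were named after their values were seen. Marker lists covered muscle fibre, slow fibre, fat cell, fibroblast, endothelial, macrophage and red cell genes. A further marker list is not reported here. The same-numbered libraries' deviations had correlations of 0.0806, 0.0376 and 0.0151, so the numbers were not taken as pairs.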

Additional observations from a re-analysis of the deposited data

How the results depend on the processing

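At an unadjusted p-value of 0.05 the number of subunits was 1 in the fit reported, and it was 0 with DESeq2's Wald test, with a replicate block and with a replicate block plus offsets for GC content and length. It was between 0 and 3 with each library left out, 3 being Ppp1r3a, Ppp1r3d and Ppp1cb without the first M92KO library. The number of glycogen genes was between 2 and 8, and that of other PP1 regulators between 5 and 11, with a library left out. Among all genes tested the number was between 1222 and 2984 in those fits, against 1955 in the fit reported. The replicate block is a hint only, since the numbers share no known source. The supplementary methods' steps turned the log2 fold change of Ppp1r3a to -0.02, of Ppp1r3e to 0.06 and of Ppp1ca to -0.02, and offsets for GC content and length turned Ppp1ca to -0.03, also with the replicate block. With a library left out, Ppp1r3a ran from -0.03 to 0.15, Ppp1r3c from -0.33 to 0.28 and Ppp1r3e from -0.06 to 0.04. The cause was not tested. Of 126 single values of the subunits, 107 kept direction and side of the threshold. The ratio without the third WT library was added after seeing the data. Below about 110 counts a library, as for Ppp1r3b, Ppp1r3d and Ppp1r3e, counting error limits what could be detected.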

Other observations

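The ratio of Ppp1r3a to Gys1 counts, computed after the values of both genes were seen, set the muscle targeting subunit against its substrate in each library. It was 0.939, 1.04 and 0.979 in WT and 0.859, 0.814 and 0.752 in M92KO libraries, so the groups did not overlap although they did for each gene alone. This was not particular to Ppp1r3a, since 5 of the 9 subunits tested had a lower ratio to Gys1 in all 3 M92KO libraries than in any WT library. The others were Ppp1r3d, Ppp1r3e, Ppp1cb and Ppp1cc, and Ppp1r3e alone had a mean of 1.79 CPM in both groups. Gys1 itself stood at 720, 982 and 984 CPM in M92KO and between 688 and 727 CPM in WT libraries. The share of all genes tested with such a ratio was not computed, so the count is not a result about the subunits. The log2 ratio of Ppp1r3a differed by -0.29 (two-sided exact permutation p = 0.1, the smallest possible). The same ratio for Ppp1r3c was 0.35, 0.343 and 0.721 in WT and 0.402, 0.302 and 0.318 in M92KO libraries, with overlapping groups and a difference of -0.39 (exact permutation p = 0.5).

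Other cell types in the muscle were followed with marker lists. Fat cell markers summed to between 315 and 364 CPM in WT and between 313 and 395 CPM in M92KO libraries, and endothelial markers to between 732 and 804 and between 646 and 833 CPM. The 7 fat cell markers tested had log2 fold changes from 0.04 to 0.97, with a median of 0.62. Of these 7, 0 had an unadjusted p-value under 0.05 with edgeR. The sum of the fibroblast markers, given with Ppp1r3a, was lower in all 3 M92KO libraries. Of these markers, 4 of 8 did not overlap between the groups, all lower, against 18.4% of all genes tested in either direction. Red cell markers summed to between 74.0 and 223 CPM in WT and between 143 and 336 CPM in M92KO libraries.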
